A study of Bos taurus with 45 samples.

Results

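Among bovine embryos that received the cytokine CSF2, those whose transferred part gave a lasting pregnancy were compared with those whose transferred part gave none. The comparison holds 17 of the 45 libraries of the study, chosen by their label of culture with CSF2, by pregnancy outcome and by a library total of at least 1000000 counts. All 17 embryos were produced in vitro with X-sorted sperm, which favours female embryos, and were cultured with CSF2 at 10 ng/ml, added on day 5 and present until harvest on day 7. Each blastocyst was cut by hand on day 7, one demi-embryo was transferred to a synchronized recipient, and RNA of the other was sequenced. In 5 embryos, called maintained, the recipient was pregnant at day 30 and at day 60 of gestation. In 12 embryos, called not established, no pregnancy was found at day 30, and 2 further embryos of this kind (853817 and 264574 counts) fell below the minimum total. Where the design is extended to embryos cultured in vehicle without CSF2, 4 maintained and 14 not established libraries above the minimum total were used.

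CSF2, also known as granulocyte-macrophage colony-stimulating factor, is a growth factor of blood cells that the oviduct and uterus also secrete. It binds a receptor of an alpha chain and a shared beta chain that signals through JAK2 and STAT5, and in cattle it is known as one of the maternal signals that act on the embryo before implantation. The day 7 blastocyst consists of an outer trophectoderm, which will form the placenta, and an inner cell mass, which gives rise to the fetus and the hypoblast. Per the labels each demi-embryo held cells of both. The sequenced part was the smaller or less intact one when the cut was uneven, so it is not a random sample of the blastocyst. Expression and pregnancy outcome were thus measured on different pieces of the same embryo. In such bulk samples, fewer cells of a type and less RNA per cell cannot be told apart.

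The files give genes by Ensembl identifier only and do not pair them with names. The tissue label was therefore not checked against lineage markers, no pathway is described, and genes appear below as groups defined by how many embryos read them, with at most 2 identifiers in each direction.

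The libraries held between 3906252 and 10326829 counts, with a median of 5250959, and no pair of libraries held identical values. The mean total was 5735720 ± 918868 counts for maintained embryos (SD, n = 5) and 6003901 ± 2307292 for the others (SD, n = 12; p = 0.804 in a two-sided exact permutation test over all 6188 regroupings). Depth thus differed by less than the spread between embryos.

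A gene is called read in an embryo where it had 5 or more counts. Maintained embryos read 3119, 4634, 6137, 4697 and 2097 genes (replicates 1, 2, 3, 9 and 10). Not established embryos read between 1095 and 4733 genes, with a median of 3312. The richest library was maintained and the poorest not established, but the groups overlapped over most of their range. The means were 4137 ± 1562 (SD, n = 5) and 3257 ± 1041 (SD, n = 12), a difference of 879.7 genes (exact permutation test, two-sided, p = 0.192, adjusted p = 0.288 over the 3 measures of library makeup). Thinning every library to the smallest total left 4044 ± 1560 (SD, n = 5) and 3162 ± 983 genes (SD, n = 12). Without maintained replicate 10, the poorest of its group, the difference was 1390 genes (exact permutation test, two-sided, unadjusted p = 0.0462). Without maintained replicate 3, the richest, it was 380 genes (exact permutation test, two-sided, unadjusted p = 0.55).

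**Figure D1:**
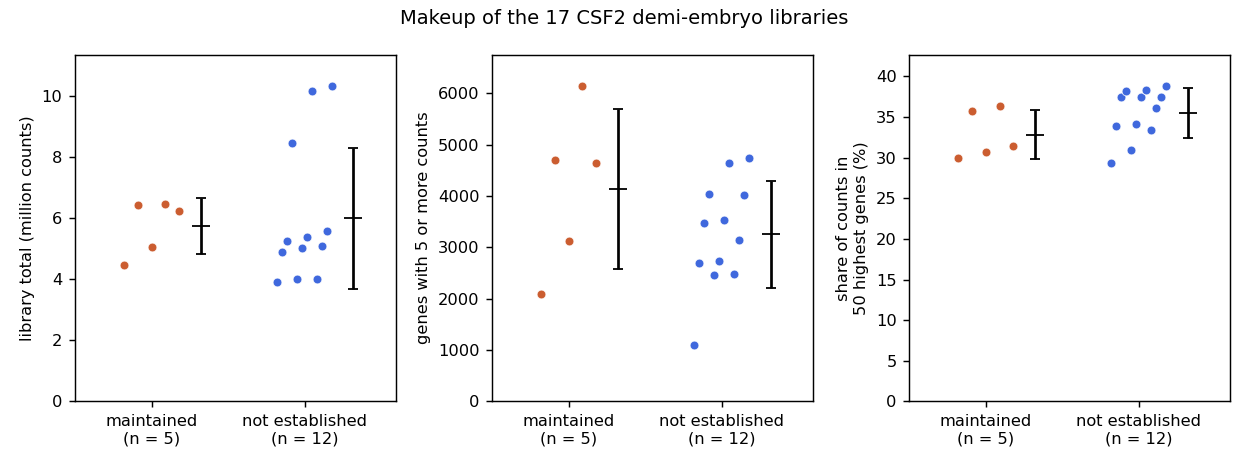
Library total in units of 1000000 counts (left), number of genes with 5 or more counts (middle) and percent of counts in the 50 highest genes (right) for each of the 17 CSF2 libraries. Points are embryos and bars are mean ± SD. Maintained embryos read 2097 to 6137 genes and not established embryos 1095 to 4733, so the groups overlap in each panel.

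The most abundant genes took a similar part of each library. The 50 highest genes of a library held 32.8% ± 3.03 of its counts in the maintained group (SD, n = 5). The share was 35.5% ± 3.08 in the not established group (SD, n = 12; two-sided exact permutation p = 0.122, adjusted p = 0.288). Without not established replicate 7, which had the lowest share at 29.4%, the difference was -3.23 percentage points (exact permutation test, two-sided, unadjusted p = 0.0465). Leaving out any other single embryo gave an unadjusted p of 0.0577 to 0.286 in the same test. The largest was without maintained replicate 3, at -1.95 points. The identities of these genes were partly fixed and partly particular to an embryo: 16 genes were among the 50 highest in all 17 libraries, and 72 of the 170 genes that entered any such list did so in 1 library only. The same gene was the highest in all 17 libraries, where it held between 3.19% and 6.58% of the counts.

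Embryos of either outcome read a small common set of genes and a large changing one. The table lists 24616 genes, of which 13198 were without a count throughout the 17 libraries and 10640 were read in at least 1. A set of 201 genes was read in all 17 and held 40.9% ± 2.77 of the counts in maintained (SD, n = 5) and 42.7% ± 2.93 in not established embryos (SD, n = 12). Another 1263 genes were read in 12 to 16 embryos and held 30.2% ± 1.45 and 29.8% ± 3.01 of the counts in these groups. The 2905 genes read in 6 to 11 embryos held 19.7% ± 0.925 and 19.2% ± 1.52. The 4051 genes read in 2 to 5 embryos held 8.01% ± 0.79 and 7.17% ± 0.737. At the far end, 2220 genes were read in 1 embryo only and held 1.15% ± 0.242 and 1.01% ± 0.301. Except for the genes read in 2 to 5 embryos, the group means of each class differed by less than the SD of either group. A maintained embryo had between 58 and 358 genes that no other of the 17 embryos read, and a not established embryo between 38 and 209.

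The likeness of pairs of embryos with the same outcome and of pairs with different outcomes overlapped over most of its range. Over the genes read in all 17 embryos, the correlation of log2(CPM + 1), where CPM is the count per 1000000 counts of the library, had a median of 0.698 in the 10 pairs of maintained embryos (range 0.398 to 0.83). The median was 0.629 in the 66 pairs of not established embryos (range 0.389 to 0.83) and 0.638 in the 60 pairs of mixed outcome (range 0.362 to 0.828). The share of genes read by both members of a pair, among those read by either, had medians of 36.6%, 33.3% and 34.3% in the same order. These correlations run across genes, each library enters many pairs, and they are given as a description.

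Maintained replicate 10 and not established replicate 25 stood apart from the rest. They read the fewest genes of their groups, 2097 and 1095, and had the lowest median correlations with the other embryos, 0.477 and 0.471. In 15 and 16 of the 201 genes read by all embryos their level was below 10 CPM, against at most 11 in each of the other 15 libraries. The other embryos overlapped on principal components computed with both libraries included, which can draw the others together. No components were computed without both. Among the other embryos the median pair correlations were 0.722 within maintained (6 pairs), 0.649 within not established (55 pairs) and 0.686 between outcomes (44 pairs). The edgeR and DESeq2 calls of the CSF2 contrast, the genes by reading, the named genes and the pair correlations are given with and without these 2 libraries. The limma voom calls and the permutation counts are given with them only.

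**Figure D2:**
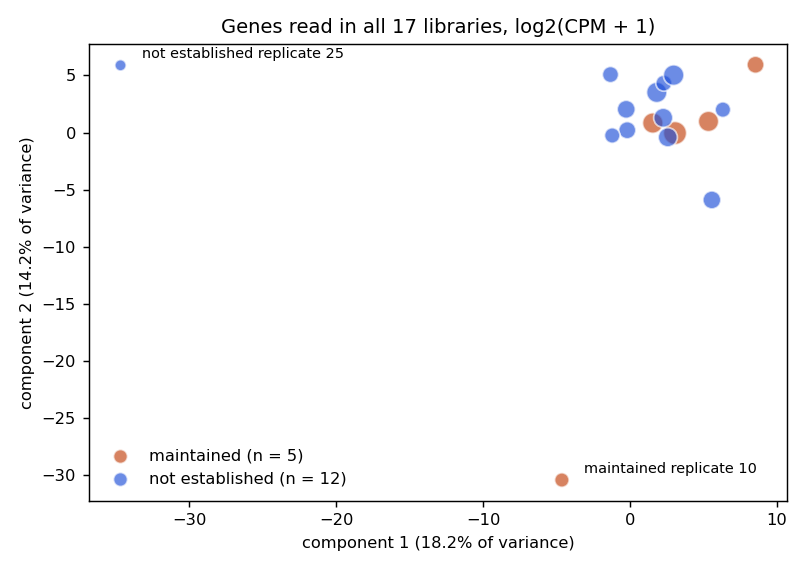
First and second principal component of log2(CPM + 1) over the 201 genes read in all 17 CSF2 libraries, holding 18.2% and 14.2% of the variance. Each point is an embryo, with its area rising with the number of genes read. Not established replicate 25 (1095 genes) lies apart on component 1 and maintained replicate 10 (2097 genes) on component 2, while the remaining 15 embryos overlap. Both libraries were included in the computation, which can draw the other 15 together.

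Whether particular genes were read in embryos of one outcome was asked first, since reading does not depend on the height of a single library. No gene separated the outcomes by reading: 0 genes were read in all 5 maintained and 0 of 12 not established embryos, and 0 the other way around. In all, 840 genes were read in all 5 maintained embryos, and 7 of these in at most 2 of the 12 not established ones. On the other side, 24 genes were read in at least 6 not established embryos and in no maintained one, and the most widely read of them reached 8 of 12. Fisher's exact test called 0 of 10640 genes at an adjusted p below 0.05, where the smallest adjusted p was 1. With groups this small, a gene could be called only if many genes reached the smallest p together. At an unadjusted p below 0.05 there were 172 genes (1.62%), of which 162 were read more often in maintained and 10 in not established embryos. There were 371 such genes without maintained replicate 10 (370 and 1) and 299 without replicate 1 (298 and 1), and 154 to 241 without any other single embryo. Without both libraries that stood apart there were 215 (210 and 5). Over all 10640 genes, the mean share of libraries reading a gene was 38.9% in maintained and 30.6% in not established embryos. With 5 against 12 libraries, a gene read in few embryos can reach such a p only toward maintained. The lean is therefore not read as a trait of maintained embryos, and the part of either in it was not tested.

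The same genes were then looked up in the vehicle embryos, which are other embryos with the same outcomes. The 162 genes were read in 82% of maintained and 16.7% of not established libraries with CSF2, on which they were chosen. With vehicle they were read in 36.9% of maintained and 33.1% of not established libraries, against 33.7% and 31.1% over all 10640 genes. The 24 genes read in no maintained CSF2 embryo were read in 41.7% of maintained vehicle libraries and 28.6% of not established ones, the opposite order.

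**Figure D3:**
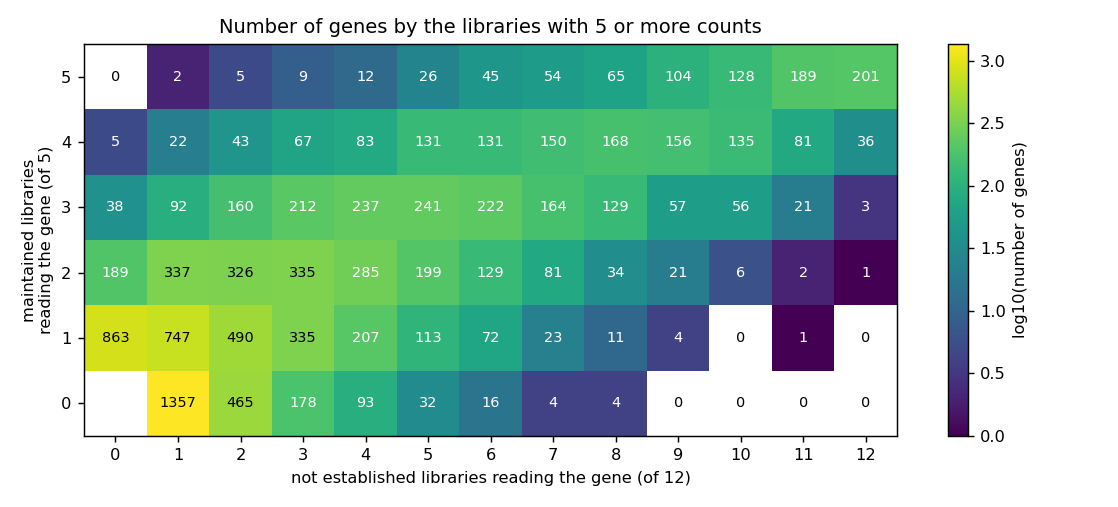
Number of genes (printed in each cell, colour on a log10 scale) by how many of 12 not established libraries (horizontal axis) and of 5 maintained libraries (vertical axis) gave 5 or more counts. The top right cell holds the 201 genes read in all 17 libraries, and the 2 corners that would separate the outcomes, top left and bottom right, hold 0 genes.

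Levels were then compared gene by gene. The edgeR quasi-likelihood test with Benjamini-Hochberg adjustment called 0 of 4776 genes (0%) at an adjusted p below 0.05, with a smallest adjusted p of 0.531. At an unadjusted p below 0.05 there were 102 genes (2.14%), 32 higher and 70 lower in maintained embryos. This count ran from 82 to 288 as single embryos were left out. It was 185, 226, 288, 177 and 181 without maintained replicate 1, 2, 3, 9 and 10, when 5167 to 5529 genes passed the filter. An exact permutation test of log2(CPM + 1) for each gene also called 0 genes, with a smallest adjusted p of 0.579, and gave 257 genes (5.38%) at an unadjusted p below 0.05. Of these, 236 were higher and 21 lower in maintained embryos (91.8% higher), against the opposite split in edgeR (31.4% higher). Over all 4776 genes the log2(CPM + 1) difference was above 0 in 65.6% and the edgeR change in 45.4%. Neither split is read as a trait of maintained embryos, and what gave them was not tested. The edgeR change compares mean levels, in which a single high library can weigh most, and the second measure compares mean logarithms, in which reading at any level weighs most. The measures had opposite signs in 1243 of 4776 genes (26%). Without both libraries that stood apart, edgeR again called 0 genes, with 168 of 5484 at an unadjusted p below 0.05.

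Genes read by every embryo gave the most precise comparison. Over these 201 genes the difference in mean log2(CPM + 1), maintained minus not established, had a median of 0.15, and its middle 90% lay between -1.17 and 1.48. The median standard error of such a difference was 0.63, against 1.72 for the genes read in 12 to 16 embryos and 1.74 for those read in 6 to 11. The edgeR test gave an unadjusted p below 0.05 for 5 of the 201 genes (2.49%), and the permutation test for 9 (4.48%), 4 higher and 5 lower. Among genes read in 12 to 16 embryos, 5 of 1262 (0.396%) had an edgeR p below 0.05, and among those read in 6 to 11 embryos 61 of 2834 (2.15%). The highest share was in genes read in 5 or fewer embryos, with 31 of 479 (6.47%) by edgeR and 43 (8.98%) by permutation at a median standard error of 1.56. All 43 were higher in maintained embryos, while 65.6% of the 479 genes had a difference above 0. With 5 against 12 libraries, genes read in so few embryos reach a small permutation p more readily toward maintained. The share is therefore not read as a trait of maintained embryos, and its source was not tested. The 201 genes varied more between not established than between maintained embryos in 124 cases, with a median SD of log2(CPM + 1) of 1.34 (n = 12) and 0.93 (n = 5). Without both libraries that stood apart this held for 137 genes, with medians of 1.15 and 0.76. The difference in spread was not tested.

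The 2 genes with the smallest edgeR p among those higher in maintained embryos differed in kind. ENSBTAG00000031205 was read in all 17 embryos. Its level was 1981, 351, 1524, 951 and 6780 CPM in maintained replicates 1, 2, 3, 9 and 10, and ran from 3.88 to 1461 CPM with a median of 94.2 in not established embryos. All 5 maintained embryos stood above that median and 10 of 12 not established embryos below the lowest maintained one, so the groups overlapped through replicates 12 and 26 at 1267 and 1461 CPM. The means were 2317 ± 2569 CPM (SD, n = 5) and 300 ± 504 CPM (SD, n = 12), a log2 change of 2.78 ± 0.8 (SE; edgeR, adjusted p = 0.803). On the log2(CPM + 1) scale the difference was 4.17 ± 1.03 (SE; exact permutation test, two-sided, p = 0.00469, adjusted p = 0.64). Maintained replicate 10 held 58.5% of its group's sum, and without it the maintained level was 1202 ± 707 CPM (SD, n = 4). Without it and not established replicate 25 the edgeR log2 change was 1.74. The exact permutation test, two-sided, then gave an unadjusted p of 0.0264 (n = 4 and 11). Bias-adjusted edgeR gave an adjusted p of 0.0396, limma voom 0.135 and DESeq2 0.34.

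ENSBTAG00000006059 was read in all 5 maintained embryos and in 1 of 12 not established ones. The maintained embryos had 2.93, 81.5, 94.3, 55.9 and 211 CPM (replicates 1, 2, 3, 9 and 10). Among not established embryos 11 had no count, which allows a level of up to 0.295 to 0.768 CPM (3 counts of each total, counting error only), and replicate 28 had 8 counts or 0.775 CPM. The groups therefore did not overlap, which was so for 2 of 4776 genes (0.0419%). How many genes would do so under random regrouping was not computed. The means were 89.2 ± 76.7 CPM (SD, n = 5) and 0.0646 ± 0.224 CPM (SD, n = 12). The difference on the log2(CPM + 1) scale was 5.63 ± 0.98 (SE; exact permutation test, two-sided, p = 0.000162, the smallest this design can give, adjusted p = 0.579). The edgeR test gave an adjusted p of 0.94. Replicate 10 held 47.4% of the maintained sum, and without it and not established replicate 25 the levels were 58.6 ± 40.4 CPM (SD, n = 4) and 0.0704 ± 0.234 CPM (SD, n = 11; exact permutation test, two-sided, p = 0.000733). This unadjusted p is again the smallest such groups can give. It follows from the lack of overlap on all 17 libraries and adds nothing to it.

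The 2 genes with the smallest edgeR p among those lower in maintained embryos were both absent from many embryos of either outcome. ENSBTAG00000019539 had 3.14 CPM in maintained replicate 3, 0.32 CPM in replicate 9 and no count in the other 3 maintained embryos. In not established embryos it ran from 0 to 2745 CPM with a median of 1.02, and 6 of 12 had no count. Not established replicate 25 held 80.4% of its group's sum, so that the mean of 285 ± 782 CPM (SD, n = 12) became 60.9 ± 109 CPM (SD, n = 11) without it, against 0.693 ± 1.38 CPM (SD, n = 5) in maintained embryos. The edgeR adjusted p was 0.531. The difference on the log2(CPM + 1) scale was -2.84 ± 1.27 (SE; exact permutation test, two-sided, p = 0.191). Without both libraries that stood apart the exact permutation test gave p = 0.379 (n = 4 and 11). Bias-adjusted edgeR gave an adjusted p of 0.0395, DESeq2 0.179 and limma voom 0.679.

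ENSBTAG00000032372 had 1 count over the 5 maintained libraries. It was read in 6 of 12 not established embryos, with 1453 CPM in replicate 25, 954 in replicate 6, 183 in replicate 9, 20.7 in replicate 2, 10.4 in replicate 10 and 7.17 in replicate 12, and had no count in the other 6. Embryos without a count were thus found in both outcomes, and embryos with 5 or more counts only among the 12 not established ones. Its means were 0.0449 ± 0.1 CPM (SD, n = 5) and 219 ± 475 CPM (SD, n = 12; edgeR, adjusted p = 0.531), with a difference of -3.18 ± 1.17 (SE) on the log2(CPM + 1) scale (exact permutation test, two-sided, p = 0.133). Without replicate 25, which held 55.3% of the sum, the not established level was 107 ± 286 CPM (SD, n = 11). With maintained replicate 10 left out as well, the exact permutation test, two-sided, gave p = 0.242 (n = 4 and 11). DESeq2 gave an adjusted p of 0.00203, bias-adjusted edgeR 0.0437 and limma voom 0.438.

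**Figure D4:**
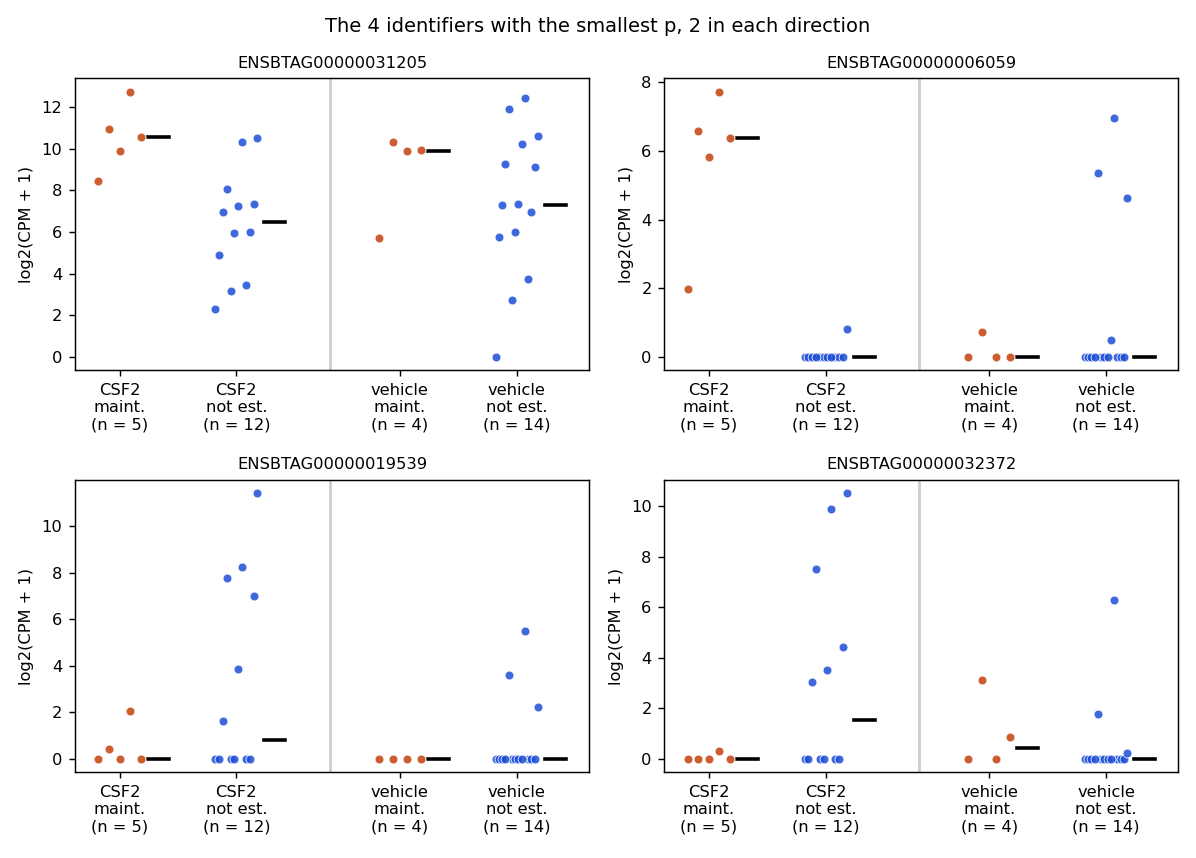
Level as log2(CPM + 1) of the 4 identifiers with the smallest edgeR p, 2 in each direction, in CSF2 embryos (left of the grey line) and vehicle embryos (right). Points are embryos and black bars are medians. ENSBTAG00000006059 separates the CSF2 groups, with 2.93 to 211 CPM against at most 0.775 CPM, and is at or near 0 in all 4 maintained vehicle embryos.

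Other tests of the same contrast called genes, but mostly different ones. In edgeR with bias-adjusted deviance 22 genes were called higher and 5 lower in maintained embryos (27 of 4776, 0.565%), limma voom with sample quality weights called 19 and 2 (21 of 4776, 0.44%), and DESeq2 called 141 and 198 (339 of 5429 with an adjusted p, 6.24%). Only 5 genes were shared in direction by DESeq2 and the bias-adjusted test, and 5 by limma voom and the bias-adjusted test. ENSBTAG00000006059 was called by all 3, with adjusted p of 0.0395, 0.00328 and 0.00038 in the order bias-adjusted edgeR, limma voom and DESeq2. Just 50 of the 339 DESeq2 calls were among the genes wide enough to be tested in edgeR, and 65 had a permutation p below 0.05. A single library held over 50% of the higher group's sum in 272 of them (80.2%), against 57.5% of all genes with a DESeq2 adjusted p. The same held for 23 of the 27 bias-adjusted calls (85.2%) and 8 of the 21 limma voom calls (38.1%), against 53% of the 4776 genes. Among the genes DESeq2 called higher, 88 of 141 were read in at most 2 of 5 maintained embryos. Among those called lower, 161 of 198 had no count in any maintained embryo, and 106 were read in at most 3 of 12 not established ones. The genes limma voom called higher were read in 4 or 5 maintained embryos in 19 of 19 cases. The shares of all tested genes with such reading were not computed, so these counts describe the calls and are not set against a background. Without both libraries that stood apart, DESeq2 called 108 higher and 233 lower and bias-adjusted edgeR 26 and 2. The bias-adjusted calls of higher genes ran from 0 to 51 as single embryos were left out. They fell to 0 without not established replicate 1, 2, 5, 6 or 28, and to 1 without replicate 9 or 12.

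The outcome contrast was then read in the vehicle embryos, which share no library with the CSF2 comparison. The edgeR test called 0 of 5743 genes there (smallest adjusted p = 0.601), and 329 (5.73%) had an unadjusted p below 0.05. Bias-adjusted edgeR called 13 genes higher and 0 lower, and DESeq2 31 and 395. Of the 102 genes with an edgeR p below 0.05 under CSF2, 81 were tested with vehicle and 36 of these (44.4%) had the same sign, against 50.5% of the 4350 genes tested in both. Among the 81, 3 also had a p below 0.05 in the same direction with vehicle and 4 in the opposite one.

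**Figure D5:**
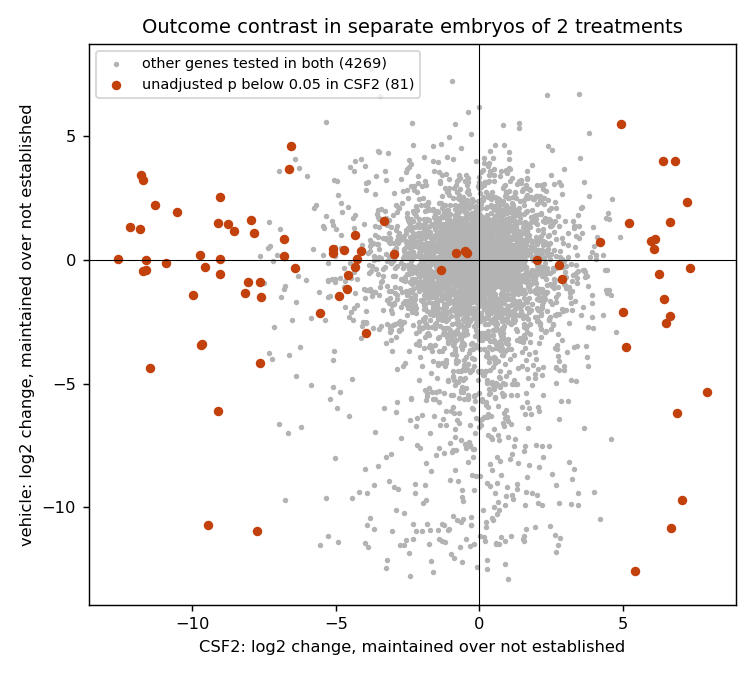
Log2 change in edgeR of maintained over not established embryos with CSF2 (horizontal axis) and with vehicle (vertical axis), for 4350 genes tested in both. Coloured points are the 81 genes with an unadjusted p below 0.05 under CSF2, of which 36 lie on the same side of 0 on both axes.

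The difference between treatments was tested as an interaction over the 35 maintained and not established libraries. The edgeR test called 0 of 7820 genes, with a smallest adjusted p of 0.135 and 1069 genes (13.7%) at an unadjusted p below 0.05. Of these, 687 had a positive interaction, a log2 change of maintained over not established that was more positive with CSF2 than with vehicle, and 382 a negative one. Bias-adjusted edgeR called 107 genes with a positive and 83 with a negative interaction, and DESeq2 434 and 151. ENSBTAG00000006059 was 1 of the 2 genes whose CSF2 groups did not overlap. With vehicle it had 0.162 ± 0.324 CPM in maintained (SD, n = 4) and 13.4 ± 33.8 CPM in not established embryos (SD, n = 14). It was read in 1 of 4 and 3 of 14 of them. Its mean thus stood lower in maintained embryos with vehicle and higher with CSF2. The interaction had an unadjusted p of 0.0172 and an adjusted p of 0.298 in edgeR. The named genes were chosen on the CSF2 libraries, which also enter this test, so their interaction p is not independent of that choice. ENSBTAG00000031205 had 812 ± 530 CPM (SD, n = 4) and 986 ± 1654 CPM (SD, n = 14) with vehicle, with medians of 958 and 158 CPM. Its means and its medians thus ran in opposite directions, and the interaction had an adjusted p of 0.367 in edgeR. ENSBTAG00000019539 and ENSBTAG00000032372 were read in few vehicle embryos, the first in 0 of 4 and 3 of 14 and the second in 2 of 4 and 2 of 14.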

How the data were processed

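RNA of single bovine demi-blastocysts was isolated with a column kit and made into libraries with a NuGEN Ovation SoLo kit with depletion of unwanted transcripts, per the labels' protocols. The authors deposited whole-number read counts per Ensembl gene, not normalized, with 1 column per embryo, matched here by title. The submitters' processing notes name UMD3.1, bosTau8 and edgeR; the aligner, the counting program and the use of strand were not given in the sources used here. Of 24616 identifiers, 0 matched the supplied RefSeq table, so the 32 gene lists, the lineage markers and the mitochondrial share were not run.

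Differences between groups of counts were fitted with edgeR 4.0.16 under R 4.3.3 (filterByExpr, TMM, quasi-likelihood F test, robust, Benjamini-Hochberg at 0.05) on the 17 libraries, across all genes passing the filter. The standard error of an edgeR log2 change is its size divided by the square root of F. TMM factors lay between 0.699 and 1.21. Alternatives used DESeq2 1.42.0 and limma 3.58.1. Exact tests used scipy 1.17.1 and log2(CPM + 1). The code was tested on simulated data. Each replicate is an embryo. With no symbols, the rule names at most 2 identifiers per direction, those with the smallest p. The comparison and these rules were chosen with earlier results of these data known.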

Additional observations from a re-analysis of the deposited data

Results flagged for a closer look

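Within groups of 4 or 5 embryos, 15 sets of values (library makeup, classes of genes and the 4 named identifiers) were screened for a highest or lowest embryo far from the rest, by Dixon's criterion, which chance meets in about 1 of 20 groups of normally distributed values. The CPM of the named identifiers, which gave all the flags, hold many zeros and are not such values. Where all other embryos had no count, any count is flagged, as for ENSBTAG00000032372 with CSF2 and ENSBTAG00000006059 with vehicle. Maintained replicate 10 was far above the other CSF2 maintained embryos for ENSBTAG00000031205, at 6780 CPM. Maintained replicate 3 was the high embryo for both genes that were lower in the maintained group, at 3.14 CPM for ENSBTAG00000019539 and at 0.224 CPM, which is 1 count, for ENSBTAG00000032372. A count of 0 in the other CSF2 maintained embryos allows 0.463 CPM or more, which exceeds this 0.224 CPM. Among vehicle maintained embryos, replicate 5 was flagged as the high embryo for ENSBTAG00000006059 at 0.648 CPM and for ENSBTAG00000032372 at 7.64 CPM. In these vehicle embryos ENSBTAG00000006059 had 5 counts in replicate 5 and none in the other 3, and ENSBTAG00000032372 had 59 counts in replicate 5, 5 in replicate 7 and none in the other 2. For ENSBTAG00000006059 a count of 0 allows up to 0.598 CPM in replicate 4, so 0.648 CPM is hardly above it.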

How the results depend on the processing

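The edgeR result of 0 genes higher and 0 lower in CSF2 embryos stayed so with library totals and a stricter filter. It also stayed so with both shallow CSF2 libraries added, the number of genes read as a covariate, and an adjusted p of 0.10. It moved to 141 higher and 198 lower with DESeq2, 19 and 2 with limma voom, 22 and 5 with bias-adjusted deviance, 989 and 37 with no filter (11418 genes), and 782 and 11 with all deeper libraries in the fit, where the single lost CSF2 library let 11930 genes pass the filter. DESeq2's size factors in edgeR gave 0 and 1. The exact permutation test gave 0 and 0. Its smallest possible p of 0.000162 passes the adjustment only if many genes reach it together, so its 0 calls say little. Leaving out each library gave 0 higher and 0 to 1 lower, the 1 without maintained replicate 1; the bias-adjusted test gave 0 to 51 higher and 1 to 8 lower. With no filter the adjusted p was 0.0256 for ENSBTAG00000006059 and 0.00937 for both lower genes, and with DESeq2's size factors in edgeR 0.0491 for ENSBTAG00000032372. The cause of these differences was not tested.

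Replicate numbers 1, 2, 3, 9 and 10 occur in both groups. Deviations of same-numbered embryos correlated between -0.00865 and 0.0464, and 1 of 5 correlated best with its own number. No likeness of same-numbered embryos was thus seen in these 5 pairs, and whether they shared a batch or day was not tested. The fit on those 10 libraries called 1 gene higher and 0 lower with the replicate block and also 1 and 0 without it, and ENSBTAG00000031205 was past the threshold in both (log2 changes 5.02 and 4.56). Those 10 libraries leave out not established replicates 12 and 26, at 1267 and 1461 CPM, through which the groups overlapped for this gene. On all 17 libraries its log2 change was 2.78 (edgeR, adjusted p = 0.803).

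In vehicle embryos the 0 and 0 calls became 31 and 395 with DESeq2, 13 and 0 with bias-adjusted deviance, and 10 and 0 with the shallow libraries. The interaction went from 0 and 0 to 434 and 151 with DESeq2 and to 107 and 83 with bias-adjusted deviance. Median log2 changes over all genes were -0.16 with TMM, -0.29 with DESeq2's size factors and -0.06 with library totals. The difference in library total turned from -268200 to 509634 with the shallow libraries and ran from -458877 to 124812 with single libraries left out (-631767 without both that stood apart), turning positive without maintained replicate 3 (51965) or not established replicate 26 (109438) or 28 (124812). For genes read the range was 380 to 1390 (1193 without both), and for the 50 highest genes -3.58 to -1.95 points, against -7.78 points with the shallow libraries. Detection called 0 genes in every setting run. With groups this small a gene could be called only if many genes reached the smallest p together, so this says little. Depth limits a count of 0 to under 0.768 CPM in each of the 17 libraries.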

Other observations

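The 1 CSF2 embryo whose pregnancy was lost between day 30 and day 60 (6178362 counts) entered no comparison. It had 1732 CPM of ENSBTAG00000031205, within the maintained range, and no count of ENSBTAG00000006059, as in 11 of 12 not established embryos. It had 7.61 CPM of ENSBTAG00000019539 and no count of ENSBTAG00000032372. In the 2 shallow not established CSF2 libraries, ENSBTAG00000006059, ENSBTAG00000019539 and ENSBTAG00000032372 had no count, which allows up to 3.51 and 11.3 CPM, and ENSBTAG00000031205 had 2 counts in replicate 8 and no count in replicate 27.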
